A study of Mus musculus with 8 samples.

Results

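Chemokine and chemokine receptor genes were examined in hearts from male mice of the C57Bl6N strain. All had undergone transverse aortic constriction (TAC), an operation that narrows the aorta and loads the left ventricle with pressure, 1 week earlier. The family was defined by gene symbol: CC, CXC, CX3C and XC ligands, their receptors and the atypical receptors Ackr1 to Ackr4. It comprised 55 of the 22180 genes that the arrays measured with probe sets of 1 gene symbol, namely 34 ligands and 21 receptors. Where a gene had more than 1 probe set, the one with the highest mean over the 8 arrays was used, which concerned only Ccl27a. Another 33 probe sets listed a family symbol among several symbols, mostly Ccl19, Ccl21 and Ccl27 copies, and are not analysed here. Hearts with a knockout of Cited4 (C4KO_TAC, n = 4) were compared with floxed control hearts (F/FCtr_TAC, n = 4), whose Cited4 allele carries recombination sites. With TAC in all 8 hearts, the comparison is one of genotypes under pressure load, without an unoperated heart. The labels name neither the Cre driver, nor the cells it acts in, nor the age of the mice, and do not say if controls carried Cre. Effects of Cre and of the deletion therefore cannot be told apart.

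Chemokines are small secreted proteins that guide leukocytes. They bind to heparan sulfate on vessel walls and matrix and signal through G protein-coupled receptors, which activate Gi proteins, integrins and the actin cytoskeleton. The subfamilies are named for the spacing of their first cysteines, and atypical receptors take up chemokines without signalling through G proteins. In the pressure-loaded heart the family is best known for the recruitment of CCR2-bearing monocytes, while resident macrophages carry CX3CR1.

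The values were log2 probe set signals. Levels of different probe sets cannot be compared with each other, so only differences between arrays are interpreted. Cited4 was at 5.89, 5.76, 6.05 and 6.22 in control replicates 1 to 4 and at 5.26, 5.15, 4.83 and 5.02 in knockout replicates 1 to 4. The groups did not overlap, with a difference of -0.91 ± 0.12 (log2, knockout minus control, SE; limma adjusted p = 0.277; exact permutation p = 0.0286, the smallest that 4 against 4 arrays allow). Of the 12 cardiomyocyte markers all were above the filter for low signals (3.80), and their mean lay between 11.46 and 11.76 on every array. Where the Cited4 probes lie relative to the deleted part is unknown here. That list was lower in the knockout in 11 of 12 genes, and activated fibroblast markers were higher in 10 of 11 (median difference 0.74). Because litters and array runs are not labelled, the p-values reflect the spread among these 8 hearts, part of which may be technical. In whole-heart RNA, fewer cells of a type and less RNA per cell cannot be told apart.

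No chemokine or receptor passed the test over all genes. With limma 0 of the 39 tested family members had an adjusted p under 0.05 (0% of the 15086 genes tested did), and the lowest adjusted p was 0.421. By the weaker rule of an unadjusted p under 0.05, 6 members (Cx3cl1, Ccl12, Cxcl16, Ccl17, Cxcl10 and Ccl3) had higher and 0 had lower signals in the knockout. All 6 are ligands, and they make up 15.4% of the tested members, where 5.64% of all genes tested were higher and 5.61% lower by the same rule. The count moved with single arrays, as did the share of all genes tested. It was 3 without control replicate 2 (3.51% of all genes tested), 2 without control replicate 3 (3.61%), 3 without knockout replicate 1 (3.37%) and 2 without knockout replicate 4 (3.62%). Without knockout replicate 2 it was 9 (7.04%). Members lower in the knockout numbered 1 without control replicate 1 (6.16% of all genes tested were lower) and 1 without knockout replicate 2 (8.8%). There were 3 without knockout replicate 3 (6.66%).

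Most of the family differed little. Of all 55 members 34 were higher and 21 lower (61.8% higher, where 52.9% of all genes measured were). Their median difference was 0.05, and 46 of them differed by less than 0.3 in either direction. At least 0.3 was reached by 8 of the 39 tested members (20.5%, against 8.53% of all genes tested), Ccl8, Ccl22, Ccr2 and 5 of the 6 named above. Among the 39 tested members 24 were higher (61.5%, against 51.2% of all genes tested), with a median of 0.06. Differences ran from -0.29 for Ccl6 to 0.92 for Ccl17. Family members varied more from heart to heart than other genes did, with a median within-group SD of 0.25 over the tested members against 0.15 over all genes tested. The widest was that of Ccl17 (0.68).

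**Figure D1:**
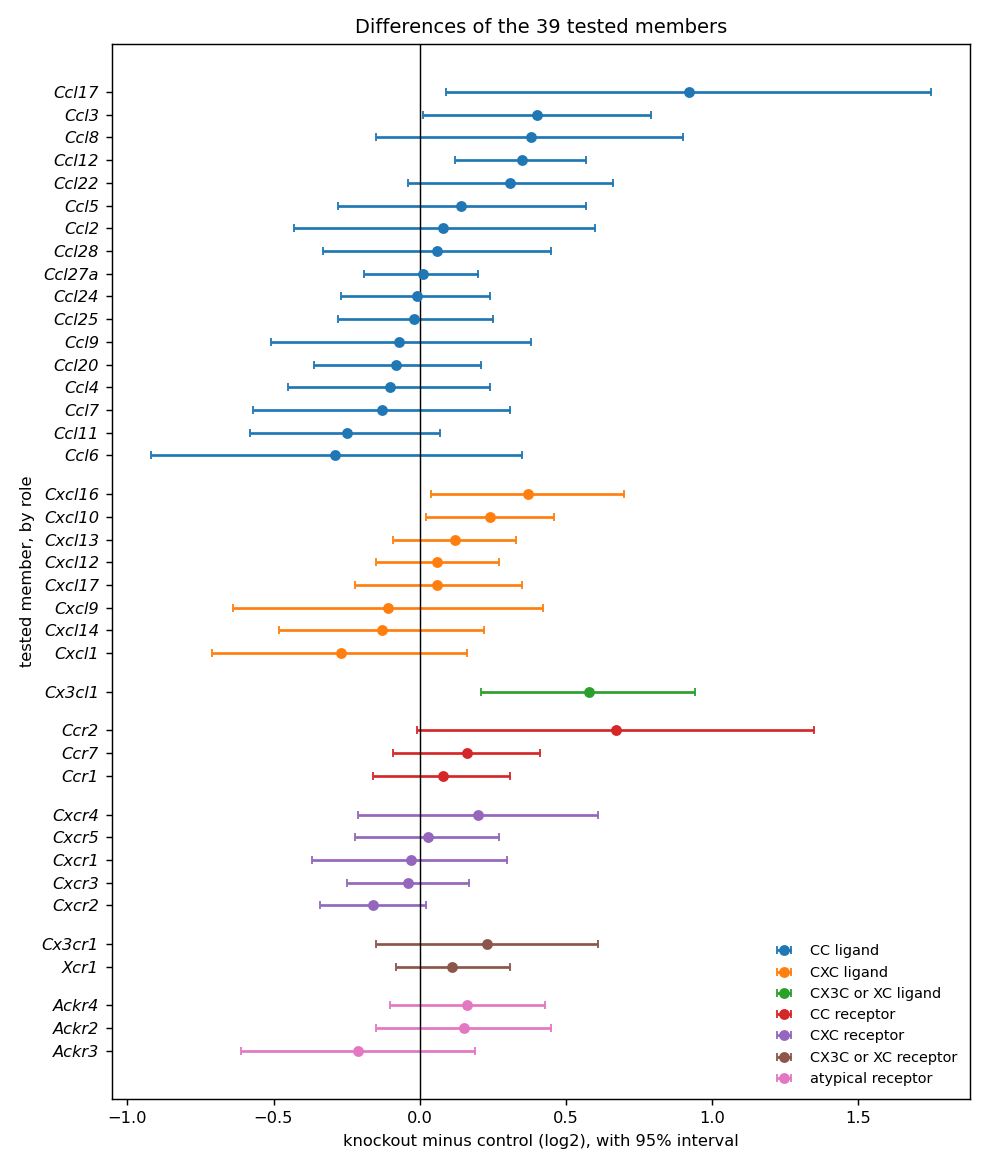
Difference of each of the 39 tested members (x axis, knockout minus control, log2; bars are limma's 95% intervals), grouped and coloured by role (y axis). The intervals of Cx3cl1, Ccl12, Cxcl16, Ccl17, Cxcl10 and Ccl3 lie above 0, and no interval lies below it.

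Cx3cl1 encodes fractalkine, a chemokine made as a membrane-anchored adhesion molecule on a mucin stalk and released by shedding. Its signal was 5.75, 5.52, 5.21 and 5.41 in control replicates 1 to 4 and 6.43, 5.94, 5.68 and 6.15 in knockout replicates 1 to 4. Of the knockout hearts 3 lay above the highest control, and knockout replicate 3 lay just below control replicate 1. The means were 5.47 ± 0.23 and 6.05 ± 0.32 (SD, n = 4), a difference of 0.58 ± 0.16 (SE; 95% interval 0.21 to 0.94; 1.49-fold) with an adjusted p = 0.421 and an exact permutation p = 0.0571. It was 0.34 without knockout replicates 1 and 4. Of 11 markers of endothelium, a known source of fractalkine, 3 were higher in the knockout, with list means of 8.13 to 8.26 in control and 8.02 to 8.33 in knockout hearts.

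Ccl17 and Ccl22, CC chemokines known from dendritic cells and macrophages that share the receptor CCR4, are the direct neighbours of Cx3cl1 among the protein-coding genes of chromosome 8 (RefSeq annotation, GRCm38.p6). Ccl17 was at 4.68, 3.57, 4.05 and 3.78 in control replicates 1 to 4 and at 5.55, 4.24, 4.22 and 5.75 in knockout replicates 1 to 4. Knockout replicates 1 and 4 stood above every control heart, whereas the others lay within the control range. The difference of 0.92 ± 0.37 (95% interval 0.09 to 1.75; adjusted p = 0.426; exact permutation p = 0.143) was the widest in the family, and it was 0.21 without knockout replicates 1 and 4. Ccl22 was at 3.68, 3.47, 3.69 and 4.01 in controls and at 4.19, 3.57, 4.22 and 4.11 in knockout hearts, a difference of 0.31 ± 0.16 (adjusted p = 0.483). Its values lay close to the filter of 3.80, and 3 of 4 knockout hearts were above the highest control. Without knockout replicates 1 and 4 it was 0.18. Of 8 dendritic cell markers 4 were higher in the knockout (median difference -0.01), and their part in these values was not tested. The probe set of their receptor gene Ccr4 lay below the filter (2.89 ± 0.36 in control and 2.83 ± 0.17 in knockout hearts).

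The promoters of these 3 neighbours are shown because Cx3cl1 had the smallest p and Ccl17 the widest difference of the family. The hearts did not order alike in the 3 genes: knockout replicate 3 was the highest knockout for Ccl22 and the lowest for Cx3cl1 and Ccl17. They run from 250 bases before to 50 after the transcription start in RefSeq GRCm38.p6, on the plus strand, at chr8:94771930-94772229 for Cx3cl1, chr8:94810203-94810502 for Ccl17 and chr8:94745434-94745733 for Ccl22. Capitals mark matches to 5 short motifs searched on both strands. They were kappaB (GGGNNTTTC), STAT (TTCNNNGAA), AP-1 (TGANTCA) and the core of the interferon-stimulated response element (ISRE; GAAANNGAA). No match to one motif overlapped a match to another in the members' promoters, and the fifth motif was the TATA box, searched as TATAAA.
Cx3cl1: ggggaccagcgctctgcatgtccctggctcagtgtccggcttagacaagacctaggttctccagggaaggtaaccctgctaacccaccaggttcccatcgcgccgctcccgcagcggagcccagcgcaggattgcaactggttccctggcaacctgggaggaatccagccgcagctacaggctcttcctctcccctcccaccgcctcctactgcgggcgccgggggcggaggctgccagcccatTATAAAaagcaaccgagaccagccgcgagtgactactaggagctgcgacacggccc
Ccl17: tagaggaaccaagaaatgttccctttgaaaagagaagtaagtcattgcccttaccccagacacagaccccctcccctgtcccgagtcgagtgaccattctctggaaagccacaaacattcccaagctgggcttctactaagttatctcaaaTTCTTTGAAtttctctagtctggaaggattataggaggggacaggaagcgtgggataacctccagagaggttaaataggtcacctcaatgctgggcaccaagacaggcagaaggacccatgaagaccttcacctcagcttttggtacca
Ccl22: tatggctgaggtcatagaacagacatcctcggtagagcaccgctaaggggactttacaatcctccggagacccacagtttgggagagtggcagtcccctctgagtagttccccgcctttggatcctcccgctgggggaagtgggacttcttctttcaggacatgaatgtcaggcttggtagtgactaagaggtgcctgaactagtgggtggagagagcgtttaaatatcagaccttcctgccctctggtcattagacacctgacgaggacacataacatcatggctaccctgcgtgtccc
Cx3cl1 held a TATA match that began 6 bases before the start, Ccl17 held a STAT match that began 99 bases before it, and Ccl22 held no match to any of the 5. A match is a description of these letters and not a shown site.

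**Figure D2:**
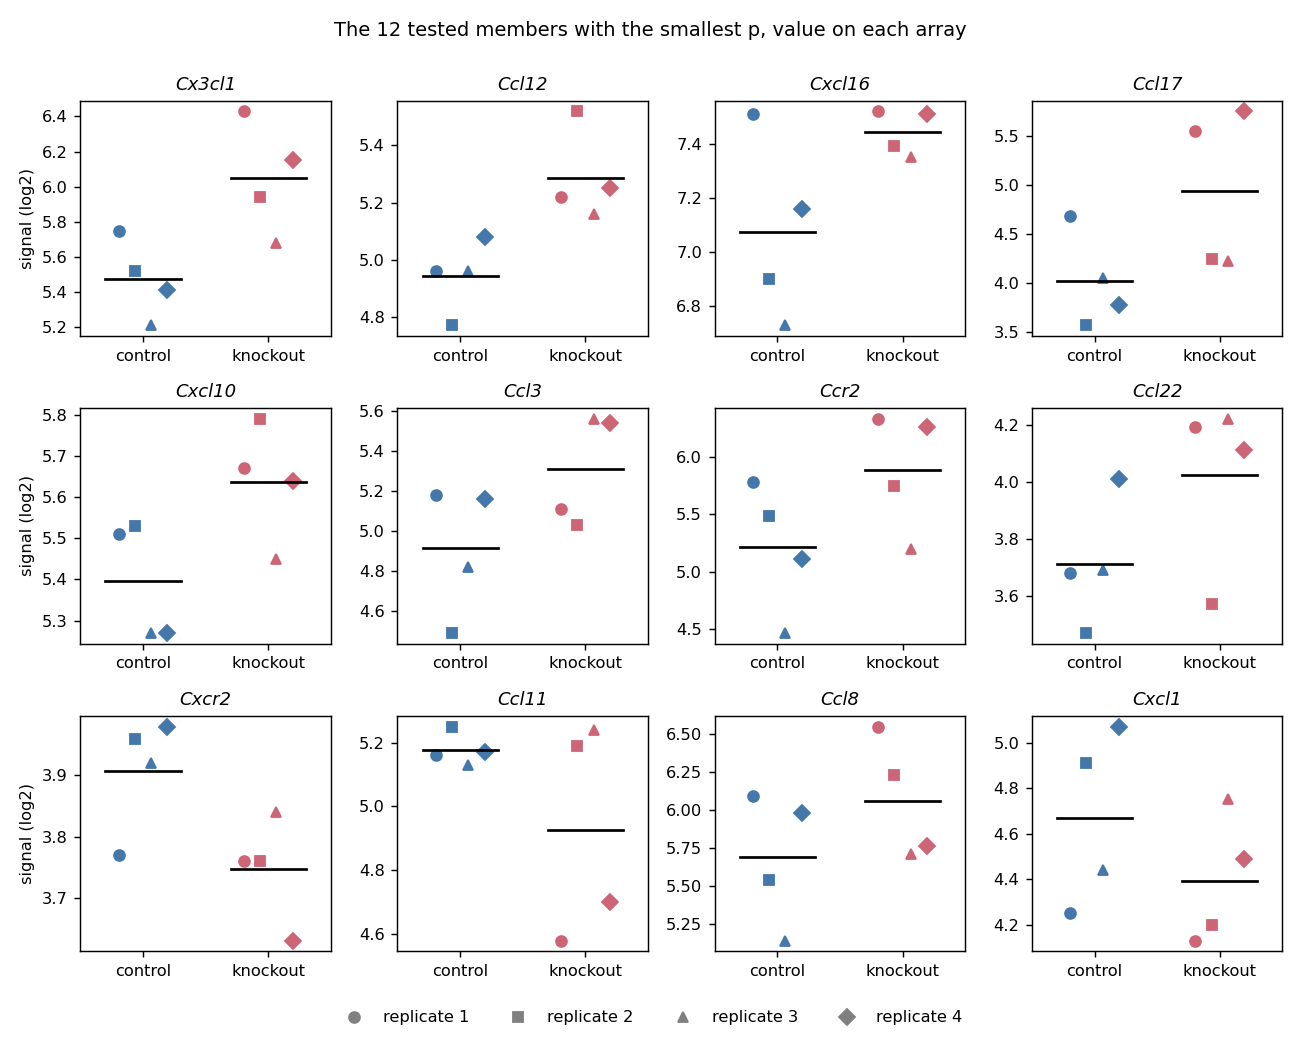
Signal (y axis, log2) on each array for the 12 tested members with the smallest p, controls in blue and knockouts in red, symbols by replicate number and lines at the group means; y axes differ between panels. Only the panel of Ccl12 has no overlap between the groups.

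Among the monocyte-attracting CC ligands, Ccl12 had the narrowest spread. It encodes MCP-5, a ligand of CCR2 in mice, and was at 4.96, 4.77, 4.96 and 5.08 in control and 5.22, 5.52, 5.16 and 5.25 in knockout replicates 1 to 4. Every knockout heart was above every control heart, and it was the only one of the 39 tested members without overlap (2.56%). Of all genes tested 2.33% were higher and 2.90% lower without overlap, 5.23% together. There were 6 such members without control replicate 1 (14.0% of all genes tested then had no overlap), 4 without knockout replicate 2 (13.0%) and 5 without knockout replicate 3 (10.7%). Leaving out any 1 of the other 5 arrays left Ccl12 as the only one. The means were 4.94 ± 0.13 and 5.29 ± 0.16 (SD, n = 4), a difference of 0.35 ± 0.10 (SE; 95% interval 0.12 to 0.57; 1.27-fold; adjusted p = 0.421; exact permutation p = 0.0286). It was between 0.27 and 0.39 when any 1 array was left out and 0.40 without knockout replicates 1 and 4. Knockout replicate 2, the heart with the highest Ccl12 and Cxcl10, also had the highest mean of atrial cardiomyocyte markers (6.86, against 5.10 to 5.47 in controls). Without it the differences were 0.27 for Ccl12 and 0.19 for Cxcl10. The Ccl12 promoter is shown as that of the member whose groups were separate (chr11:82101595-82101894, plus strand). The TATA match in capitals began 31 bases before the start.
Ccl12: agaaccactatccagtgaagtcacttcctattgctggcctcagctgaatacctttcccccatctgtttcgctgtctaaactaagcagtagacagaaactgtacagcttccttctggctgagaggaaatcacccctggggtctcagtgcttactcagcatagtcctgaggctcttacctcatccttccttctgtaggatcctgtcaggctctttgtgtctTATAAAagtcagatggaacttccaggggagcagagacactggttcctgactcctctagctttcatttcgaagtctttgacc

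The other genes of the same row of neighbours on chromosome 11 had differences of both signs, and in none were the groups separate. Ccl2, which encodes MCP-1, the main CCR2 ligand, was at 5.66, 5.34, 5.68 and 6.39 in control and 5.42, 5.69, 6.25 and 6.05 in knockout hearts, with full overlap. Its difference was 0.08 ± 0.23 (95% interval -0.43 to 0.60), so a change of up to 0.60 was within the error. It ran from -0.06 without control replicate 2 to 0.29 without control replicate 4. Ccl7 (MCP-3) differed by -0.13 ± 0.20 and Ccl8 (MCP-2) by 0.38 ± 0.24, with 2 of 4 knockout hearts above the controls for Ccl8 and none for Ccl7. For Ccl8 the value was 0.19 without control replicate 3 and 0.21 without knockout replicate 1. Ccl11, the eotaxin gene that attracts eosinophils through CCR3, was at 5.16, 5.25, 5.13 and 5.17 in controls, a narrow range, and at 4.58, 5.19, 5.24 and 4.70 in knockout hearts. Knockout replicates 1 and 4 lay below every control, and the others overlapped them. The difference of -0.25 ± 0.15 (adjusted p = 0.525) was -0.13 without knockout replicate 1 and 0.04 without knockout replicates 1 and 4. Ccl1, the sixth gene in the row, was below the filter.

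Ccl3 (MIP-1 alpha), Ccl6 and Ccl9, ligands of CCR1, and Ccl4 (MIP-1 beta) lie with Ccl5 (RANTES) in another row of neighbours on chromosome 11. Ccl3 was at 5.18, 4.49, 4.82 and 5.16 in control and 5.11, 5.03, 5.56 and 5.54 in knockout replicates 1 to 4, a difference of 0.40 ± 0.18 (95% interval 0.01 to 0.79; adjusted p = 0.444; exact permutation p = 0.171). Knockout replicates 3 and 4 were above the controls and the others within their range. The value was 0.26 without control replicate 2, the lowest heart. Ccl4, named beside it as its neighbour, differed by -0.10 ± 0.15, with knockout replicate 3 highest of all hearts (5.39) and knockout replicates 1 and 2 lowest (4.63 and 4.64).

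Ccl6 was at 6.21, 6.46, 6.98 and 6.25 in control and 5.75, 6.14, 7.09 and 5.77 in knockout hearts, and Ccl9 at 8.19, 8.55, 8.81 and 8.45 against 8.34, 8.04, 9.03 and 8.32. In both genes control replicate 3 and knockout replicate 3 were the highest hearts of their groups, so the spread within a genotype was wider than the difference between the means (-0.29 ± 0.28 and -0.07 ± 0.20). Without knockout replicate 3 the differences were -0.59 and -0.27, and for Ccl6 -0.12 without control replicate 3. Resident macrophage markers, all 14 of them above the filter and 8 higher in the knockout, had list means of 7.40 to 7.55 in control and 7.32 to 7.74 in knockout hearts, with knockout replicate 3 at 7.74 the highest. Its part in these results was not tested. Ccl5 differed by 0.14 ± 0.19.

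In all, 29 members lay in 9 such rows of direct neighbours. The differences were all above 0 in 4 rows, namely the one on chromosome 8 and 3 of receptor genes on chromosome 9 (Cx3cr1 and Ccr8; Cxcr6, Xcr1 and Ccr1; Ccr3 and Ccr2). They were all below 0 in 2 rows, Cxcr2 with Cxcr1 and Ccl26 with Ccl24, and of both signs in the others. Ccr8 (0.05), Ccr3 (0.03), Cxcr6 (0.42) and Ccl26 (-0.06) were below the filter, and Ccl24 differed by -0.01. Of all genes measured 52.9% were above 0, and a shared change within a row was not tested.

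**Figure D3:**
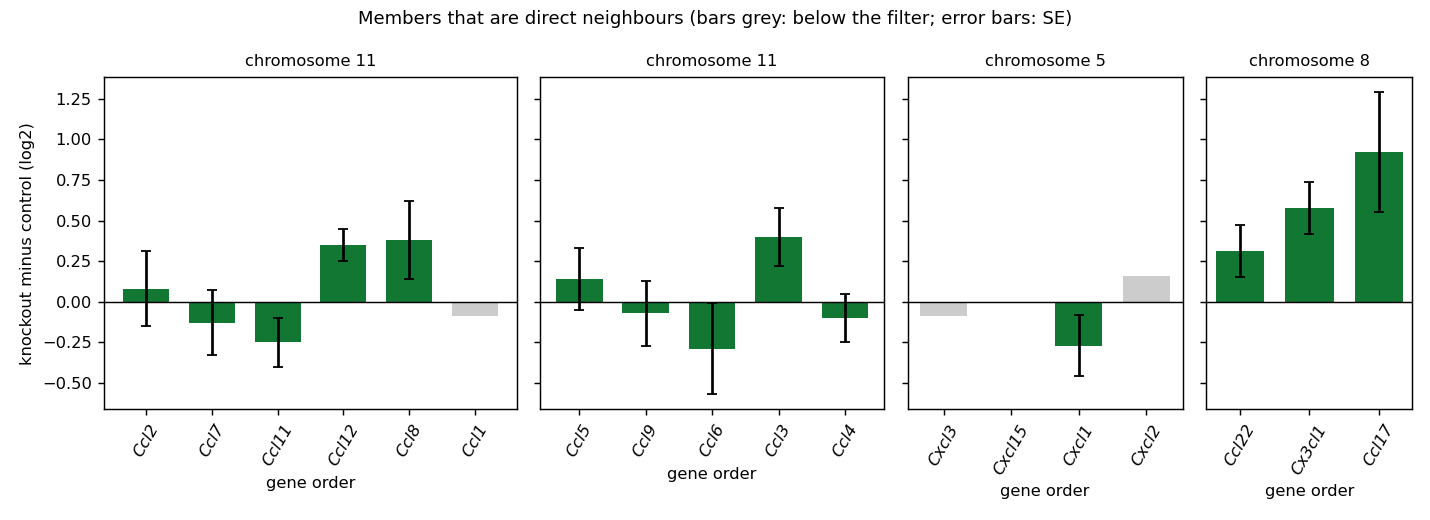
Difference (y axis, knockout minus control, log2; error bars are SE) of members that directly neighbour each other among protein-coding genes of 3 chromosomes, in gene order (x axis), with members below the filter in grey. The 3 neighbours on chromosome 8 are all higher, and the rows shown for chromosomes 11 and 5 hold both directions.

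The remaining CC ligands lay within the error. Ccl20, Ccl24, Ccl25, Ccl27a and Ccl28 had differences from -0.08 (Ccl20) to 0.06 (Ccl28). Of the 17 tested CC ligands, the difference was above 0 in 9 and below it in 8 (median 0.01). Ccl1 and Ccl26 were below the filter. The gene Ccl27a has near-identical copies that its probe set may also detect.

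Among the CXC ligands, Cxcl16 and Cxcl10 were higher on average. Cxcl16 encodes a transmembrane chemokine and scavenger receptor that is shed to attract CXCR6-bearing T cells. Its signal was 7.51, 6.90, 6.73 and 7.16 in control and 7.52, 7.39, 7.35 and 7.51 in knockout replicates 1 to 4. The knockout hearts lay close together, and 3 of 4 controls were below all of them, with control replicate 1 inside their range. The difference was 0.37 ± 0.15 (95% interval 0.04 to 0.70; 1.29-fold; adjusted p = 0.426; exact permutation p = 0.0857). With 1 array left out it lay between 0.25 without control replicate 3 and 0.51 without control replicate 1. Its unadjusted p was not under 0.05 without control replicate 2 or 3 or without knockout replicate 1 or 4. The receptor gene Cxcr6 was below the filter, at 3.60, 3.21, 3.06 and 3.13 in control and 4.32, 3.47, 3.19 and 3.70 in knockout hearts, a difference of 0.42 (exact permutation p = 0.200).

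Cxcl10 encodes IP-10, an interferon-induced ligand of CXCR3, and was at 5.51, 5.53, 5.27 and 5.27 in control and 5.67, 5.79, 5.45 and 5.64 in knockout hearts. Only knockout replicate 3 overlapped the controls. The difference was 0.24 ± 0.10 (95% interval 0.02 to 0.46; 1.18-fold; adjusted p = 0.433; exact permutation p = 0.0857). The companion interferon-induced gene Cxcl9, named here for that relation, was at 6.86, 6.63, 5.77 and 6.29 in control and 5.97, 6.64, 6.54 and 5.95 in knockout hearts, a difference of -0.11 ± 0.24 with full overlap. Their receptor gene Cxcr3 differed by -0.04 ± 0.09, and Cxcl11 was below the filter.

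Cxcl1, which encodes the neutrophil attractant KC, was at 4.25, 4.91, 4.44 and 5.07 in control and 4.13, 4.20, 4.75 and 4.49 in knockout hearts. Knockout replicates 1 and 2 were below every control and the others overlapped, with a difference of -0.27 ± 0.19 (adjusted p = 0.599). It was -0.14 without control replicate 4 and -0.41 without control replicate 1. Other ligands of the same receptor, Cxcl2, Cxcl3 and Cxcl5, were below the filter, with differences of 0.16, -0.09 and -0.06. The receptor gene Cxcr2 was at 3.77, 3.96, 3.92 and 3.98 in control and 3.76, 3.76, 3.84 and 3.63 in knockout hearts. It differed by -0.16 ± 0.08 (adjusted p = 0.484; exact permutation p = 0.0571), and 3 of 4 knockout hearts were below every control at signals near the filter. Of 12 neutrophil markers 8 were below the filter, S100a8, S100a9 and Ly6g among them. The list mean was 3.40 to 3.60 in control and 3.49 to 3.60 in knockout hearts. Of the 4 tested markers 2 were higher and 2 lower. Csf3r, with the smallest p of these, was higher (0.28 ± 0.10, adjusted p = 0.421), with 3 of 4 knockout hearts above every control.

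The promoters of Cxcl10 and Cxcl1 are shown as one with an interferon-type match and one with kappaB matches. Cxcl10 lies on the minus strand at chr5:92348840-92349139 and Cxcl1 on the plus strand at chr5:90890995-90891294 (RefSeq GRCm38.p6, motifs in capitals as before).
Cxcl10: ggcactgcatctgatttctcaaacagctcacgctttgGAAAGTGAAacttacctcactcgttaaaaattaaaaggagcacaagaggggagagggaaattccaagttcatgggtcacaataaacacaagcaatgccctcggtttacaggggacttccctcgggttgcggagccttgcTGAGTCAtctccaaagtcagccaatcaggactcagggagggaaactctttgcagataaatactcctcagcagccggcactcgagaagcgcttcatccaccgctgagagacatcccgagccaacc
Cxcl1: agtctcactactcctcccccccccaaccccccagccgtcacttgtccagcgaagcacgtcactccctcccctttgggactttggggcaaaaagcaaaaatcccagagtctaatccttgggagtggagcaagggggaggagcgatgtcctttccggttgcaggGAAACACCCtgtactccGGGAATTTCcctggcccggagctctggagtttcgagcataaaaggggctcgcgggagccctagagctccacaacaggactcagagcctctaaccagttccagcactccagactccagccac
In Cxcl10 an ISRE match began 213 bases and an AP-1 match 74 bases before the start. Cxcl1 held 2 kappaB matches, which began 88 and 71 bases before it. RefSeq promoters were at hand for 41 of the 55 members, 45 promoters in all. The kappaB letters occurred in 11 of the 45 (24.4%, against 4.36% of 32851 promoters of the same length), those of Ccl9, Ccl20, Ccr3, Cxcl1, Cxcl2, Cxcl3, Cxcl9, Cxcr2, Cxcr3, Cxcr4 and Xcl1. Cx3cl1, Ccl12, Ccl17, Cxcl10 and Ccl3, the members with an unadjusted p under 0.05 and a promoter at hand, are not among these 11. They are too few to set against the share of 24.4%. Cxcl16 had no promoter at hand, and the letters can lie outside this window. The string GGGNNTTTC is also narrow and misses other forms of the kappaB site, so a promoter without a match may still hold one. TATA occurred in 13 (28.9%, against 13.6%), ISRE and AP-1 each in 7 (15.6%, against 8.56% and 7.81%) and STAT in 3 (6.67%, against 8.30%).

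Cxcl12, which encodes SDF-1, the ligand that retains progenitors and leukocytes through CXCR4, was at 8.54, 8.39, 8.50 and 8.45 in control and 8.47, 8.34, 8.56 and 8.74 in knockout hearts. Hearts of both groups lay in 1 narrow range, with a difference of 0.06 ± 0.09 (95% interval -0.15 to 0.27; -0.01 without knockout replicate 4). Its signalling receptor gene Cxcr4 was at 6.43, 6.08, 5.64 and 5.98 against 6.48, 6.26, 5.80 and 6.41, a difference of 0.20 ± 0.18 with overlap (0.07 without control replicate 3 and 0.35 without knockout replicate 3). The scavenging receptor gene Ackr3 was at 6.27, 6.40, 6.59 and 6.47 against 5.62, 6.39, 6.56 and 6.33, where knockout replicate 1 alone stood low. It differed by -0.21 ± 0.18, and by 0.00 without that array. The other tested CXC ligands, Cxcl13, Cxcl14 and Cxcl17, differed by 0.12 ± 0.10, -0.13 ± 0.16 and 0.06 ± 0.13, and Cxcl15 was below the filter.

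In the limma fit that gave the values above, no receptor reached an unadjusted p under 0.05, but some did in alternative fits. Ccr2 did (higher) with no filter, with quantile normalization again, with array weights and with the replicate block. It also did without control replicate 1 and without knockout replicate 3. Ackr4, Ccr7 and Xcr1 did (higher) without knockout replicate 2, and Cxcr2 (lower) with array weights and without control replicate 1. Ccr2, the receptor that brings inflammatory monocytes out of the marrow and into tissue, was at 5.78, 5.49, 4.47 and 5.11 in control and 6.33, 5.75, 5.20 and 6.26 in knockout replicates 1 to 4. Knockout replicates 1 and 4 were above every control, and the others lay within the control range. The means were 5.21 ± 0.56 and 5.88 ± 0.53 (SD, n = 4), a difference of 0.67 ± 0.30 (SE; 95% interval -0.01 to 1.35; 1.59-fold; adjusted p = 0.448; exact permutation p = 0.143). It was 0.42 without control replicate 3 and 0.26 without knockout replicates 1 and 4.

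Monocyte markers were measured beside it. Of 11 monocyte markers 9 were higher in the knockout, with list means from 5.66 to 5.88 in control and from 5.81 to 6.03 in knockout hearts. The list holds Fn1 (1.17 ± 0.52) and Vcan, which fibroblasts also express. Ly6c2, also on it, differed by -0.30 ± 0.16. Plac8 was higher without overlap (0.59 ± 0.18, adjusted p = 0.421), and Chil3 and Ifitm6 were below the filter. Activated fibroblast markers had list means of 8.71, 7.50, 7.66 and 7.91 in control and 9.25, 8.40, 8.07 and 9.33 in knockout replicates 1 to 4. Knockout replicates 1 and 4, the hearts with the highest Ccr2, Ccl17 and Cx3cl1, were also the highest there, and control replicate 1 was the highest control in all 4. The part of either list in these results was not tested.

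**Figure D4:**
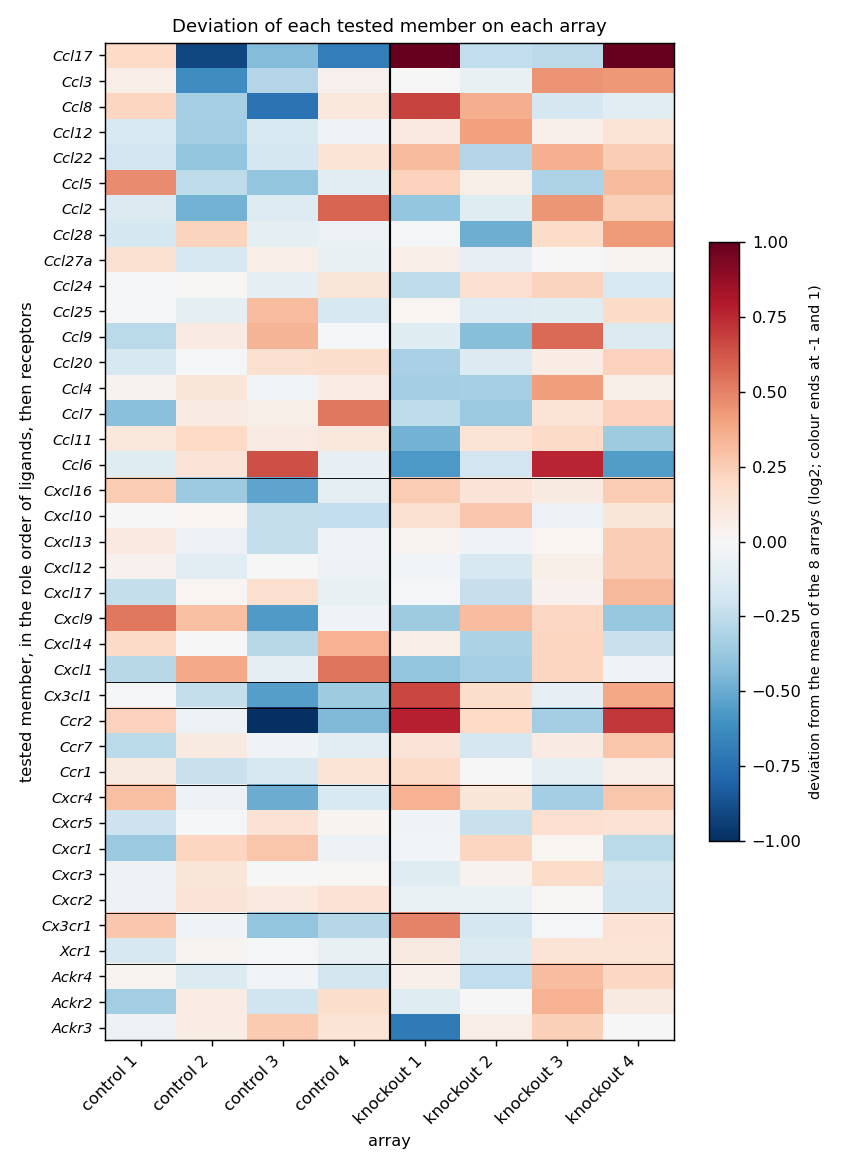
Deviation of each tested member (y axis, by role) on each array (x axis) from its mean over the 8 arrays (log2, red above and blue below; colours end at -1 and 1). Ccl17, Ccr2 and Cx3cl1 are red in knockout replicates 1 and 4, and Ccl6 and Ccl9 are red in knockout replicate 3 and control replicate 3.

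The other receptors differed by smaller amounts. Cx3cr1, the fractalkine receptor gene of resident macrophages and patrolling monocytes, was at 6.49, 6.17, 5.82 and 5.93 in control and 6.71, 6.04, 6.21 and 6.37 in knockout hearts. The groups overlapped, with a difference of 0.23 ± 0.17 (95% interval -0.15 to 0.61; adjusted p = 0.622) that was 0.10 without knockout replicate 1 and 0.02 without knockout replicates 1 and 4. Ccr1, shared by several CC ligands, differed by 0.08 ± 0.10, and Ccr7, which leads dendritic cells and T cells to lymph nodes, by 0.16 ± 0.11. Xcr1, a marker of cross-presenting dendritic cells, differed by 0.11 ± 0.09 and Cxcr5, the follicular homing receptor gene, by 0.03 ± 0.11. Among the atypical receptors Ackr2, which scavenges inflammatory CC chemokines, differed by 0.15 ± 0.14 and Ackr4, which scavenges the ligands of CCR7, by 0.16 ± 0.12. Cxcr1 differed by -0.03 ± 0.15.

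Members below the filter were 8 ligands (Ccl1, Ccl26, Cxcl2, Cxcl3, Cxcl5, Cxcl11, Cxcl15 and Xcl1) and 8 receptors (Ccr3, Ccr4, Ccr6, Ccr8, Ccr9, Ccr10, Cxcr6 and Ackr1). Apart from Cxcr6, their differences ran from -0.09 to 0.16. A signal below the filter does not show that a gene was not expressed. Of 9 T cell markers Cd3d, Cd3g and Cd2 were also below it, with list means of 3.97 to 4.06 in control and 3.98 to 4.06 in knockout hearts. Of 8 NK cell markers 5 were below it and 6 higher in the knockout. Their list means were 3.50 to 3.67 in control and 3.69 to 3.75 in knockout hearts, without overlap but at signals of the filter's size, and their part in the family's values was not tested.

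Ligands and receptors that are known to pair differed in the same and in opposite directions. Of 13 measured pairs with both genes tested, both were higher in 6, both lower in 2 and opposite in 5. Pairs share members, so these are not independent counts. Cx3cl1 and Cx3cr1 (0.58 and 0.23) and Ccl12 and Ccr2 (0.35 and 0.67) were both higher, whereas Cxcl10 and Cxcr3 (0.24 and -0.04) were opposite.

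Downstream of the receptors, 38 genes of chemokine receptor signalling were measured. Of the 37 tested, 7 were higher at an unadjusted p under 0.05 and 0 lower (18.9%, beside the 5.64% of all genes tested), none with an adjusted p under 0.05. Src, a kinase coupled to receptors and integrins, differed by 0.38 ± 0.13 without overlap, Pik3cd, the leukocyte PI3-kinase delta gene, by 0.28 ± 0.10, and Gnb1, a G protein beta subunit gene, by 0.23 ± 0.09. Many of these genes are also used outside leukocytes. The list median was 0.12, against 0.01 over all genes measured.

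Upstream, regulators of NF-kappaB, which induces many chemokines, had 1 of 16 genes higher at an unadjusted p under 0.05 and 0 lower (6.25% higher, near the 5.64% of all genes tested). That gene, Nfkbiz, an inducible nuclear co-regulator, averaged 5.01 in controls and 5.41 in knockouts (0.40 ± 0.09, no overlap, adjusted p = 0.421). The genes with the next smallest p, Rel (-0.25 ± 0.11) and Irak1 (-0.19 ± 0.09), were lower. In each, 3 of 4 knockout hearts were below every control. Of the 16 genes 11 were higher and 5 lower. Nfkb1 and Chuk were not among the genes measured with probe sets of 1 symbol. Of 26 measured inducing cytokines and their receptors 8 were below the filter, Il6, Ifng and Il4 among them. Of the 18 tested, 14 were higher and 4 lower. Only 1 was without overlap (5.23% of all genes tested were), Ifngr2, which was lower (-0.13 ± 0.07, adjusted p = 0.526, exact permutation p = 0.0286). In either direction 0 of the 18 reached an unadjusted p under 0.05. Among 18 leukocyte adhesion genes 2 were higher by that rule and 0 lower (11.1% higher, against 5.64% of all genes tested), Selplg, the selectin ligand gene of leukocytes (0.30 ± 0.12), and F11r, a junctional adhesion molecule gene (0.21 ± 0.08). The vascular adhesion gene Vcam1 differed by 0.29 ± 0.14.

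Proteases that shed or cleave chemokines had 0 of 8 tested genes at that level, with Mmp14 at 0.53 ± 0.30 and Mmp2 at 0.36 ± 0.23. Of the 17 other tested chemoattractant and receptor genes 2 were higher and 1 lower (11.8% and 5.88%, against 5.64% and 5.61% of all genes tested). S1pr1, a lymphocyte egress receptor gene, differed by 0.26 ± 0.09 and C3ar1, the receptor gene for C3a, by 0.33 ± 0.13. The lower gene was Pf4, a platelet and macrophage CXC chemokine gene outside the symbol rule (-0.37 ± 0.16, adjusted p = 0.444).

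**Figure D5:**
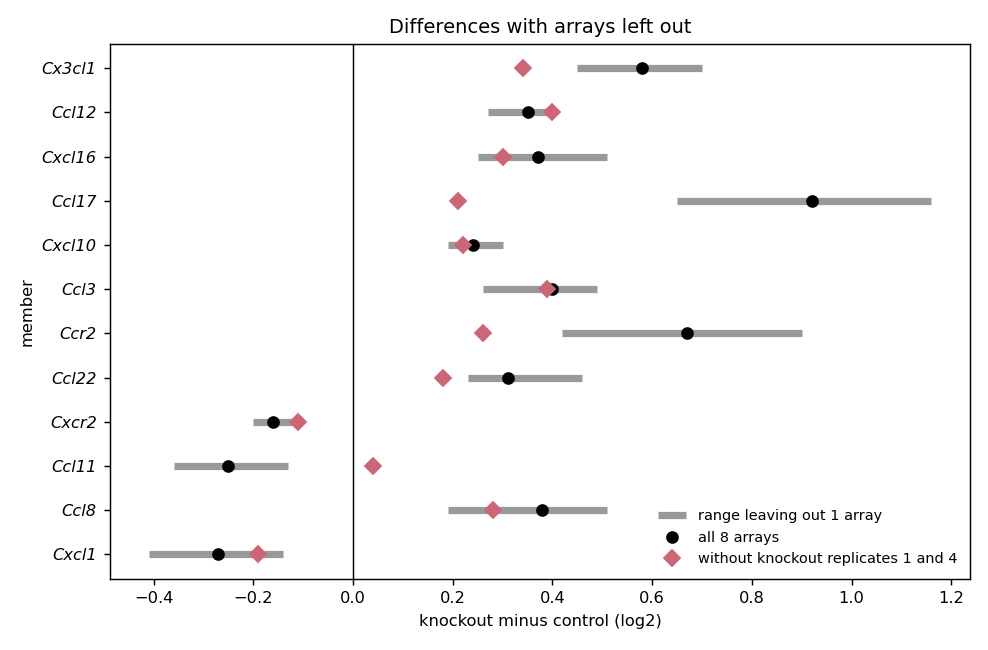
Difference (x axis, knockout minus control, log2) of the 12 tested members with the smallest p (y axis) with all 8 arrays (black), over the 8 fits that leave out 1 array (grey bars, lowest to highest) and without knockout replicates 1 and 4 (red diamonds). Without knockout replicates 1 and 4, Ccl17 moves from 0.92 to 0.21 and Ccr2 from 0.67 to 0.26. Over all these fits Ccl12 lies between 0.27 and 0.40. Knockout replicates 1 and 4 held the highest knockout values of Ccl17 and Ccr2, but middle values of Ccl12. Leaving them out therefore had to lower Ccl17 and Ccr2 and could move Ccl12 little, so this contrast does not compare how stable the genes are.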

How the data were processed

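Total RNA of frozen hearts was hybridised to Affymetrix arrays with biotin labelling, per the labels' protocols. For each of the 8 arrays the authors deposited 41345 probe set values on the log2 scale. The submitters' processing notes list RMA and limma and give no version; the genome build of the array is not given in the sources used. RMA sets the arrays to like distributions and would hide a common shift. Array medians were 4.29 to 4.33 and correlations between arrays 0.979 to 0.988, so none was a duplicate. With 4 arrays a group, precision is limited.

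Of the probe sets 23521 had 1 symbol, 1814 several and 16010 none, and 23328 of the first matched RefSeq by Entrez identifier. Genes were tested when their mean reached the 40th percentile of probe set means (3.80). Limma 3.58.1 in R 4.3.3 (lmFit, eBayes) was run across all 15086 such genes and p-values were adjusted by Benjamini and Hochberg's method (threshold 0.05). For single members an exact permutation test (two-sided, 70 assignments) was added.

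Members, gene lists (6 of pathways, 20 of cell types), pairs, rows of neighbours, alternatives and motifs were chosen with earlier results of these data known. Named were the 12 tested members with the smallest p, the 2 with the highest mean per role, the known partners of the 12, and up to 3 genes per list with the smallest p. Other members are given by neighbourhood or in ranges. Promoters are from RefSeq GRCm38.p6. The alternatives changed the filter, normalization, probe set choice, variance model, array weights, replicate block, threshold and member rule, or left out arrays.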

Additional observations from a re-analysis of the deposited data

Results flagged for a closer look

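Values of 34 genes were examined in both groups for a heart far from the other 3, by Dixon's test at the 95% level, and 4 of 68 groups (5.88%) held one, where chance gives about 1 in 20. Ccl22 was at 3.57 in knockout replicate 2, below the next knockout heart at 4.11. Xcr1 was at 4.34 in the same heart, below the next at 4.57. Ccr4 was at 3.08 in knockout replicate 4, above the next at 2.76, with all of these values below the filter. Ccr8 was at 3.18 in control replicate 4, below the next at 3.25, also under the filter.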

How the results depend on the processing

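Genes called over the whole table stayed at 0 in every alternative, including an adjusted p of 0.1 (1697 genes at an unadjusted p under 0.05 in the limma fit). The family's median lay between 0.02 and 0.09 with 1 array left out and between 0.03 and 0.06 in the other alternatives, and that of the tested members between 0.03 and 0.14 and between 0.05 and 0.08. Members higher at an unadjusted p under 0.05 numbered 2 to 9 with 1 array left out (3.37% to 8.12% of all genes tested). There was 1, Ccl12, without knockout replicates 1 and 4 (2.19%). Members lower numbered 0 to 3 with 1 array left out (3.17% to 8.8% of all genes tested), 1 with array weights (6.75%) and 1 with the replicate block (6.46%). Under current symbols with Pf4 and Ppbp there was 1, Pf4 (5.61%). Members without overlap numbered 1 to 6 with 1 array left out (6.89% to 14.0% of all genes tested) and 2 without knockout replicates 1 and 4 (12.4%).

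Of 27 single genes 16 kept their direction in all alternatives run and 11 did not, and none passed the threshold in any. Without knockout replicates 1 and 4 the sign turned to positive for Ccl11 (0.04), Ccl9 (0.04), Ccl6 (0.14), Ackr3 (0.05) and Cxcr3 (0.09). It turned to negative for Cxcl12 (-0.02), Cxcr4 (-0.01), Cxcr5 (-0.01) and Ccr1 (-0.01). The cause was not tested. This pair of arrays was left out with earlier results known, so the turns depend on that choice. With 1 array left out, Ccl9 ran from -0.27 to 0.06, Cxcl12 from -0.01 to 0.12, Cxcr5 from -0.04 to 0.11, Cxcr3 from -0.11 to 0.01, Ccl2 from -0.06 to 0.29 and Ccl7 from -0.29 to 0.03.

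Same-numbered arrays correlated at 0.36, 0.01, 0.28 and -0.03 after removal of the group means. No correlations of differently numbered arrays are set beside these, so they cannot show whether the numbers pair the samples. With the replicate block 9 members (Ccr2 among them) were higher and 1 (Ccl6) lower at an unadjusted p under 0.05. Of all genes tested 7.97% were higher and 6.46% lower by that rule, and 0 genes were called. Low signal limits what can be read from the 16 members below the filter.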
